A study of Mus musculus with 6 samples.

Results

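The genes described here build the machinery that copies DNA: the factors that license replication origins, the replicative helicase and its activators, the replicative polymerases with their clamp and clamp loader, the single-strand binding proteins, and the flap nuclease Fen1 and the histone mRNA factor Slbp. Members were taken by gene name from the array files, as every non-control probe of the Mcm, Orc, Gins, Pola, Pold, Pole, Prim, Rfc and Rpa subunit genes and of Pcna, Cdc6, Cdt1, Cdc45l, Cdc7, Dbf4, Gmnn, Fen1 and Slbp. This gave 72 probes of 44 genes, out of 41174 probes and 27962 gene names on the array. Of the 72 probes, 70 passed the filter on dim signals, and all 44 genes had at least 1 such probe. The probes that did not pass are the second probe of Orc5l and the third of Pola2, which were not well above background on any array. Names follow the array files, where Orc1l to Orc6l and Cdc45l are the genes now called Orc1 to Orc6 and Cdc45.

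Metanephroi, the embryonic kidneys, were dissected from CD1 mice at E13.5, cultured on filters and exposed for 6 hours to Scriptaid, a hydroxamic acid inhibitor of histone deacetylases (HDACs), or to Nullscript, its inactive structural relative, each at 2.0 µg/ml, with paired kidneys receiving the different drugs. RNA of both treatments shared each 2-colour Agilent array, and each of 3 biological replicates was run on a pair of arrays of opposite dye orientation, so that 3 arrays carried Scriptaid in Cy3 and 3 carried it in Cy5. The sources used here do not say how many embryos make up a replicate, and the design text counts a dye swap on 2 of 4 arrays where the dye fields of 6 arrays were followed. No mutant allele or transgene is named, and whole kidneys were measured, so fewer cells of a type and less RNA per cell cannot be told apart.

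Across the arrays, 91.5% to 96.5% of non-control spots per channel were well above background. Replicates 1 and 2 shared a slide and replicate 3 lay on another, each slide with its own scan. The drug names of the channels are not settled by the data. All 5 genes read as a check, which HDAC inhibitors raise in other cell types, were lower in the channel labelled Scriptaid, with H1f2 at a log2 ratio of -1.72 and Cdkn1a at -0.91. All 4 genes that they lower elsewhere were higher, with Ccnd1 at 1.90 and Myc at 1.71 (further Myc probes from 0.30 to 1.76). Tyms was at 0.73, with further probes from -0.02 to 0.74. Over all genes, 22.2% passed as higher and 23.2% as lower by the test described further on. The check genes were chosen with earlier results of these data known. Groups are therefore called the channel labelled Scriptaid and the channel labelled Nullscript, "higher" and "lower" refer to the channel labelled Scriptaid, and every sign below turns if the drug names were exchanged. Markers of nephron progenitors, renal vesicles, ureteric bud, stroma and endothelium were all measured, the dimmest being Ret with a mean log2 signal of 7.50 and 7.51 in the channels labelled Scriptaid and Nullscript.

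In G1 phase the origin recognition complex, Cdc6 and Cdt1 load the Mcm2 to Mcm7 ring onto DNA as an inactive double hexamer, a step called licensing, and geminin (Gmnn) blocks Cdt1 once S phase has begun. The kinase of Cdc7 and Dbf4, together with cyclin-dependent kinases, then has Cdc45 and the GINS complex join the ring, which turns it into the active helicase. Polymerase alpha with primase starts each strand, polymerases epsilon and delta extend the leading and lagging strands, and the PCNA ring, loaded by replication factor C, holds them on DNA. Many of these genes are transcribed towards S phase by E2F factors, which the retinoblastoma family restrains. In the kidney at this stage, dividing nephron progenitors, ureteric bud tips and stromal cells all use this machinery.

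Because E2F sites are the element these promoters are best known for, the promoter windows of RefSeq (build GRCm38.p6), which run from 250 bases before to 50 bases after a gene's start, were searched for the letters TTTCCCGC, TTTGGCGC, TTTCGCGC and TTTGCCGC on both strands. A window was found for 38 of the 44 genes, all but Gmnn, Mcm4, Gins1, Gins4, Prim2 and Rfc2. Of these 38, 16 held a match, 42.1%, against 2.61% of the 27025 genes in the table. The letters CCAAT, on either strand, were found for 23 of 38, 60.5%, against 41.1% of all genes. Shown are 60 bases around the match nearest to the start among those wholly before it, for the 9 genes with such a match and a difference that passed the test described further on. Each is read 5′ to 3′ on the gene's own strand, and capitals mark the matched letters.
Orc3l (chr4:34614950-34615009, minus strand): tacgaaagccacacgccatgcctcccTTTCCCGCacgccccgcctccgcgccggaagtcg
Cdc6 (chr11:98907987-98908046, plus strand): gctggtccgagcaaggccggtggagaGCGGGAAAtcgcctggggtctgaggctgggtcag
Mcm5 (chr8:75109334-75109393, plus strand): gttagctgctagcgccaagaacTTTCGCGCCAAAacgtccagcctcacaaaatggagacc
Mcm6 (chr1:128359719-128359778, minus strand): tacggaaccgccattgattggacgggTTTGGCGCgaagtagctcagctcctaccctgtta
Mcm7 (chr5:138172015-138172074, minus strand): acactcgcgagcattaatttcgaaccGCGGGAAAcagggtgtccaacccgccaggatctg
Gins3 (chr8:95633492-95633551, plus strand): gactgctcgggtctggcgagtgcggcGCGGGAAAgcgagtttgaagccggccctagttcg
Pola1 (chrX:93632260-93632319, minus strand): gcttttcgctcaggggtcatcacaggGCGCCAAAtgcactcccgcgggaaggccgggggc
Pole4 (chr6:82652875-82652934, minus strand): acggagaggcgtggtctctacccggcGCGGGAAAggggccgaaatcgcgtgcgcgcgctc
Rfc3 (chr5:151651209-151651268, minus strand): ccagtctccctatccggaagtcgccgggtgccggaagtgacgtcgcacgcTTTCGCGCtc
In Mcm5 the capitals are 2 matches that overlap, TTTCGCGC on the gene's strand and TTTGGCGC on the other. Mcm6 held 3 matches in its whole window, more than any other member. In Cdt1, Mcm3, Mcm8, Pold1, Pold3 and Pole2 the matches lay at or after the start, Mcm7 and Rfc3 each had a further match there that is not shown, and Orc1l, which did not pass the test, had its match 27 bases before the start. A match is a description of letters and not a binding site, and a window without these letters says nothing about the factors.

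Values below are normalised log2 signals per channel and log2 ratios of labelled Scriptaid over labelled Nullscript, where a difference of 1 is a factor of 2. Each replicate is the mean of its 2 arrays, errors are the SD of n = 3 replicates, and p values are from limma's moderated test of the mean ratio against 0, adjusted over all 39408 probes with 0.05 as the threshold. A gene is represented by its brightest probe. Differences that passed were frequent in these kidneys: 22.2% of all 26500 genes were higher and 23.2% lower, 45.4% in either direction. Among the 44 replication genes 20 were higher, 45.5%, 11 were lower, 25.0%, and 13 did not pass, so that 70.5% passed in either direction. Among genes at least as bright as the dimmest member, 28.4% were higher and 29.6% lower. The median log2 ratio of the 44 genes was 0.13, against -0.01 for all genes, and in the 3 replicates it was 0.11, 0.11 and 0.15. Differences were moderate. Of the 31 genes that passed, 24 differed by less than 1.5-fold, 7 by at least 1.5-fold and 0 by 2-fold, and their median absolute log2 ratio was 0.41 against 0.36 for all genes that passed. All 31 had the same sign in the 3 replicates, which a test of the mean of those replicates favours. Over single probes, 31 of 70 were higher and 14 lower, against 23.5% and 21.8% of all probes, or 45.2% in either direction. The 3 signals of each channel did not overlap for 26 higher and 11 lower member probes, against 18.4% and 14.5% of all probes.

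These counts varied with replicate 3 and with the centring. Without replicate 3, which is also the fit within the first slide, 14 genes were higher and 6 lower, and with the slide as a block 18 were higher and 9 lower. The fit without replicate 3 holds fewer replicates, as do the fits without either of the others. Among all probes its lower count fell as well. The cause of the change was not tested. The second slide holds a single replicate, so it gives no test of its own. With each array centred on its median in place of loess, 25 were higher and 8 lower, and Mcm7, for example, stood at 0.76. The background moved as well under that setting, from 9243 probes higher and 8576 lower to 9307 higher and 11635 lower of 39408. The labelled drug also moved with markers of kidney cell types, of which 6 of 6 nephron progenitor, 5 of 6 renal vesicle, 4 of 6 ureteric bud, 6 of 6 stromal and 5 of 6 endothelial genes were higher. Over all genes, 22.2% were higher and 23.2% lower. The summed progenitor signal was 14.99 to 15.24 under the Scriptaid label and 13.91 to 13.98 under the Nullscript label, and the summed stromal signal was 16.13 to 16.29 and 15.38 to 15.63. In the same order the sums were 14.14 to 14.27 and 13.61 to 13.79 for renal vesicles, 14.93 to 15.12 and 14.53 to 14.62 for ureteric bud, and 14.25 to 14.30 and 13.41 to 13.67 for endothelium. For red blood cells 0 of 6 markers were higher and 3 lower (sums of 16.24 to 16.44 and 16.56 to 16.73), for neurons 1 was higher and 5 lower (12.59 to 12.72 and 12.75 to 13.01), and for macrophages 3 were higher and 1 lower (12.59 to 12.86 and 12.24 to 12.63). Further probes of a marker could differ from its brightest probe in size. The brightest and the further probe read 0.66 and 0.00 for Pecam1, 0.86 and 0.12 for Pdgfra, and 0.34 and -0.03 for Pax8. For Osr1 they read 0.10 and 0.83, and for Tek 0.03 and 0.48. Ptprc was at 1.07, with further probes from -0.11 to 0.15. The part of these cell types in the replication gene differences was not tested.

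**Figure D1:**
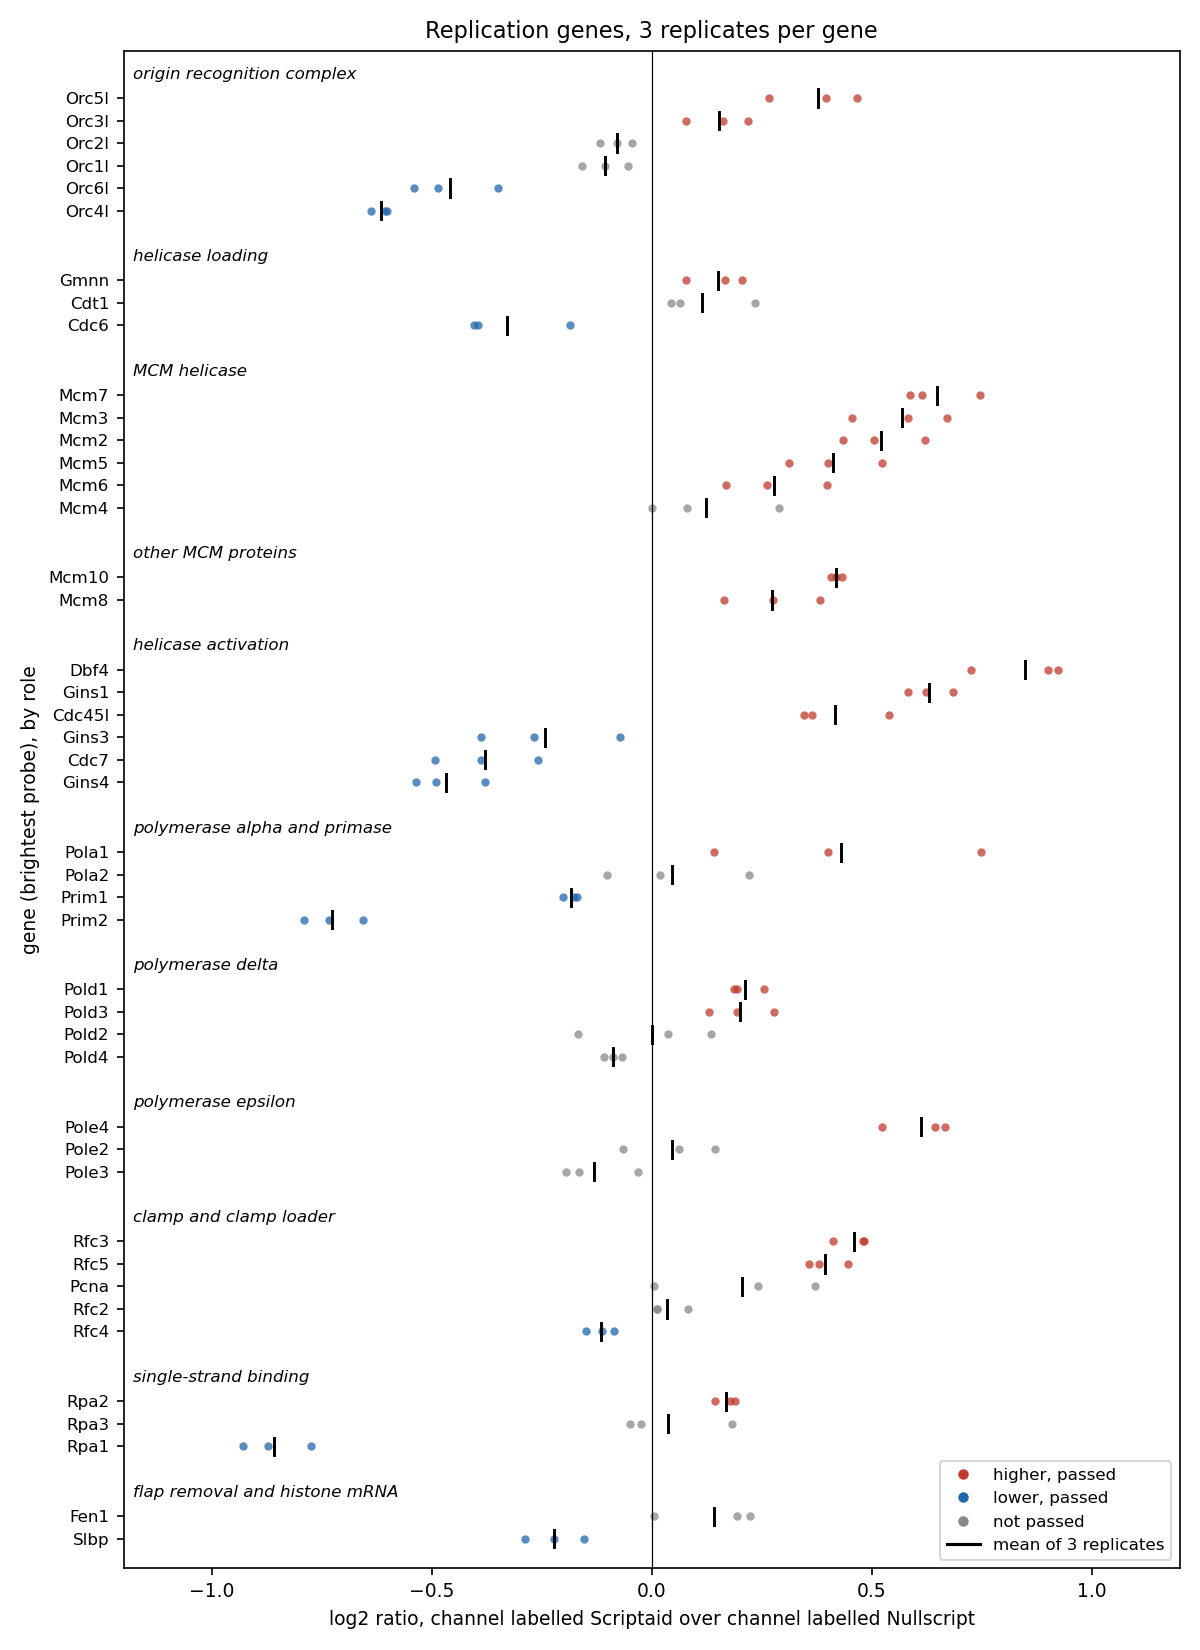
Log2 ratio of labelled Scriptaid over labelled Nullscript (x axis) for the brightest probe of each of the 44 replication genes, grouped by role (y axis); points are the 3 replicates, bars their mean, red and blue mark genes that passed as higher and lower. The 6 MCM helicase genes have means above 0, with Mcm4 in replicate 1 at 0.00, while helicase activation, primase, the origin recognition complex and single-strand binding proteins have members on both sides, from Rpa1 at -0.86 to Dbf4 at 0.85.

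Most genes of the replicative helicase were higher. Of Mcm2 to Mcm7, which form the hexameric ring that unwinds DNA, 5 were higher, 0 were lower and 1 did not pass, with a median log2 ratio of 0.47 and replicate medians of 0.48, 0.42 and 0.49. The share of 83.3% higher compares with 22.2% of all genes and 28.4% of genes at least as bright as the dimmest member. Mcm7 had signals of 14.51, 14.35 and 14.73 under the Scriptaid label and 13.89, 13.76 and 13.98 under the Nullscript label, the order kept below. Its channels did not overlap, and the log2 ratio was 0.65 ± 0.09 (adjusted p = 0.000466). Mcm3 was measured by a very bright probe at 15.12, 15.29 and 15.22 against 14.67, 14.62 and 14.64. The ratio was 0.57 ± 0.11 (adjusted p = 0.000935). That probe was saturated in the labelled Scriptaid channel of 2 arrays, and a dimmer second probe of Mcm3, saturated on none, gave 0.72 ± 0.11 (adjusted p = 0.000501). Mcm2 stood at 13.72, 13.54 and 13.63 against 13.22, 13.10 and 13.01. The channels were separate, with a ratio of 0.52 ± 0.09 (adjusted p = 0.000914).

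Mcm5 was also higher, at 14.07, 13.82 and 13.96 against 13.55, 13.51 and 13.56. This is a ratio of 0.41 ± 0.11 (adjusted p = 0.00232) with no overlap. For Mcm6 the difference was smaller, 15.13, 15.23 and 15.17 against 14.96, 14.83 and 14.91. Its ratio of 0.28 ± 0.12 passed (adjusted p = 0.0105), but not without replicate 3, where the adjusted p of 0.0658 was the highest in a range of 0.000843 to 0.0658 over the alternatives. Mcm4 did not pass, with 15.12, 15.26 and 15.21 against 15.12, 14.97 and 15.13. Its ratio was 0.12 ± 0.15 (95% interval -0.04 to 0.28, adjusted p = 0.183). It passed with median centring, at 0.25 (adjusted p = 0.00674), and on the Cy5 arrays alone, at 0.32 (adjusted p = 0.0341), and was at -0.07 on the Cy3 arrays alone, with adjusted p values up to 0.886 over the alternatives. The bright probes of Mcm4 and Mcm6 were, like that of Mcm3, saturated in the labelled Scriptaid channel of 2 arrays, and a saturated spot is a lower bound of the signal.

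The remaining MCM family members were higher too. Mcm10, which helps to switch on the loaded helicase, had even replicates, at 12.56, 12.43 and 12.50 against 12.13, 12.01 and 12.09, a ratio of 0.42 ± 0.01 (adjusted p = 0.000502). Its dye orientations were less even, with means of 0.55 with Scriptaid in Cy3 and 0.29 with Scriptaid in Cy5. Mcm8, which acts with Mcm9 in recombination repair and is not part of the replicative ring, had a ratio of 0.27 ± 0.11 (adjusted p = 0.00948) by its brightest probe. Its second probe read -0.16 ± 0.11 (adjusted p = 0.0566), and the mean of both probes, 0.06, did not pass (adjusted p = 0.135, the highest in a range of 0.0010 to 0.135). The call of Mcm8 was also lost without replicate 3 and on the arrays with Scriptaid in Cy5 alone. Mcm9 was not analysed here.

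**Figure D2:**
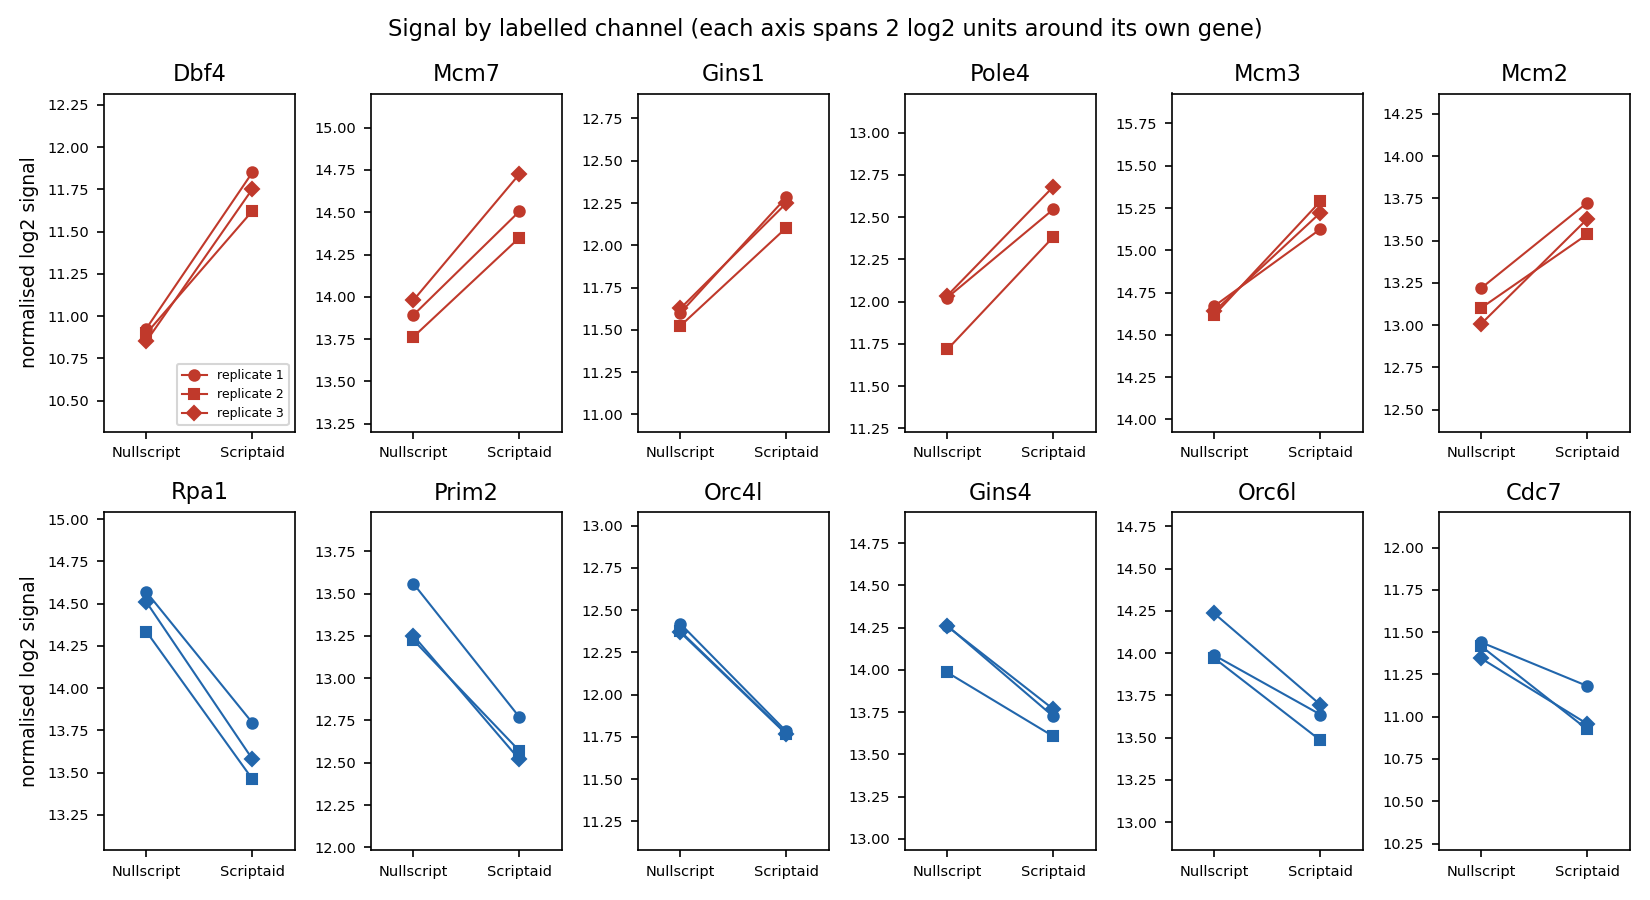
Normalised log2 signal (y axis, spanning 2 log2 units around each gene) in the channels labelled Nullscript and Scriptaid (x axis) for the 6 replication genes with the largest higher and the 6 with the largest lower ratios; lines join the channels of a replicate. In every panel the 3 lines run the same way and the channels do not overlap, as for Dbf4 between 10.85 to 10.93 and 11.62 to 11.85.

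The factors upstream of the helicase were mixed. Of the 6 origin recognition genes 2 were higher, 2 lower and 2 did not pass, with a median of -0.09. That is 33.3% in each direction, near the 28.4% higher and 29.6% lower of genes at least as bright as the dimmest member. Orc4l, an ATPase-family subunit of the core ring, had signals of 11.78, 11.77 and 11.77 against 12.42, 12.37 and 12.37. The groups did not overlap and the ratio was -0.61 ± 0.02 (adjusted p = 0.000252). On single arrays Orc4l ranged more widely, from -0.87 to -0.34, with means of -0.75 with Scriptaid in Cy3 and -0.48 with Scriptaid in Cy5. Its other 3 probes were negative too, at -0.45 and -0.26, which passed, and at -0.11, which did not. Orc6l, the subunit outside the ATPase family, was at 13.64, 13.48 and 13.69 against 13.99, 13.97 and 14.23. It was lower by a ratio of -0.46 ± 0.10 (adjusted p = 0.00141). Orc5l, another core subunit, was higher at 8.90, 8.50 and 8.79 against 8.50, 8.23 and 8.32, where the channels overlap although every replicate was higher. Its ratio was 0.38 ± 0.10 (adjusted p = 0.00284).

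Orc3l was higher by only 0.15 ± 0.07 (adjusted p = 0.0283). Of its 5 probes 3 passed as higher and the other two read 0.10 and 0.09, yet the brightest probe lost its call without replicate 1 or replicate 3, with the slide as a block, with Agilent's processed signals and on the Cy5 arrays alone (adjusted p from 0.00798 to 0.153 over the alternatives). Orc1l, the subunit that is best known to vary through the cell cycle, did not pass at -0.11 ± 0.05 (95% interval -0.20 to -0.02, adjusted p = 0.0588), nor did Orc2l at -0.08 ± 0.04 (95% interval -0.16 to 0.00, adjusted p = 0.10).

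The loading factors differed among themselves. Cdc6, the ATPase that joins the origin recognition complex to load the helicase, was lower, at 11.02, 10.69 and 10.73 against 11.21, 11.09 and 11.13. The channels did not overlap, with a ratio of -0.33 ± 0.12 (adjusted p = 0.00691). A second, dimmer probe of Cdc6 gave -0.81 ± 0.13 (adjusted p = 0.000552), so that both probes were lower but by different amounts. Without replicate 3 the brighter probe missed the threshold (adjusted p = 0.0543, the highest in a range of 0.00058 to 0.0543). Cdt1, which carries the helicase to the origin, did not pass: 14.35, 14.33 and 14.21 against 14.12, 14.29 and 14.15. The channels overlapped, and the ratio was 0.11 ± 0.11 (95% interval -0.01 to 0.24, adjusted p = 0.124).

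Gmnn, which encodes the Cdt1 inhibitor geminin, stood at 14.88, 14.92 and 14.88 against 14.80, 14.71 and 14.71. Its ratio of 0.15 ± 0.07 passed (adjusted p = 0.0267), and the dye orientations differed. On the arrays with Scriptaid in Cy3 the mean ratio was -0.12 and on those with Scriptaid in Cy5 it was 0.42, a dye effect with an adjusted p of 0.00804 in limma's fit of the 6 arrays. The probe was saturated in the labelled Scriptaid channel of 1 array, and with saturated spots left out the ratio was 0.06 (adjusted p = 0.656, the highest in a range of 0.00081 to 0.656). The call was also lost without replicate 2, without replicate 3 and with the slide as a block.

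Helicase activation held both the highest member and a split within complexes. All 6 of its genes passed, 3 higher and 3 lower. These shares of 50% each compare with 22.2% higher and 23.2% lower over all genes. Dbf4, the regulatory subunit without which Cdc7 has no kinase activity, had signals of 11.85, 11.62 and 11.75 against 10.93, 10.90 and 10.85. This was the largest ratio among the members, 0.85 ± 0.11 (adjusted p = 0.000359), or 1.80-fold. It is carried by the brightest probe: the further, dimmer probes of Dbf4 read 0.12 ± 0.06 (adjusted p = 0.0485) and 0.04 ± 0.01 (adjusted p = 0.359). Cdc7, the catalytic partner, went the other way with 11.18, 10.92 and 10.96 against 11.44, 11.42 and 11.34. Its ratio was -0.38 ± 0.12 (adjusted p = 0.00379), and its further probes were at -0.16 and -0.08 and did not pass.

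Cdc45l, the scaffold that joins the helicase at firing, was higher at 10.75, 10.40 and 10.74 against 10.39, 10.06 and 10.20. The channels were just separate and the ratio was 0.42 ± 0.11 (adjusted p = 0.00229). The 3 measured GINS subunits, which assemble in equal numbers into a single complex, were not alike. Gins1 was higher, at 12.28, 12.10 and 12.25 against 11.60, 11.52 and 11.63, a ratio of 0.63 ± 0.05 (adjusted p = 0.000314), and its second probe gave 0.61 ± 0.05. Gins4 was lower, at 13.72, 13.61 and 13.77 against 14.26, 13.98 and 14.26, a ratio of -0.47 ± 0.08 (adjusted p = 0.000984). The size, though not the sign, of the Gins4 difference varied with the dyes, -0.70 with Scriptaid in Cy3 and -0.23 with Scriptaid in Cy5 (adjusted p of the dye effect = 0.0146). Gins3 was at 10.96, 10.58 and 10.69 against 11.03, 10.97 and 10.96, with a ratio of -0.24 ± 0.16 (adjusted p = 0.0361). The channel ranges of Gins3 touch only through replicate 1, whose ratio was -0.07, and its call was lost without replicate 2 or replicate 3, with the slide as a block, with median centring and on the Cy3 arrays alone (adjusted p from 0.00629 to 0.167).

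The enzyme that starts new strands was likewise split. Pola1, the catalytic subunit of polymerase alpha, had signals of 12.54, 12.07 and 12.53 against 12.14, 11.93 and 11.78. It was higher in each replicate but unevenly, by 0.40, 0.14 and 0.75, and the channels overlapped. The mean of 0.43 ± 0.30 passed (adjusted p = 0.0361), and failed without replicate 1 (adjusted p = 0.0795) and without replicate 3 (a ratio of 0.27, adjusted p = 0.0871), in a range of 0.00777 to 0.0871. Prim2, the large primase subunit that hands the primer to the polymerase, was lower at 12.77, 12.57 and 12.52 against 13.56, 13.23 and 13.25. The gap was wide and even, with a ratio of -0.73 ± 0.07 (adjusted p = 0.000292), though a second and much dimmer Prim2 probe read 0.07 ± 0.04 (adjusted p = 0.163). Prim1, the catalytic primase subunit, was lower by a small and even ratio of -0.18 ± 0.02 (adjusted p = 0.00598), from channel signals of 13.34, 13.36 and 13.47 against 13.51, 13.53 and 13.67. Its call was lost without replicate 3 and with median centring, where the ratio was -0.08 (adjusted p = 0.15, the highest in a range of 0.0030 to 0.15). Pola2, the accessory subunit, did not pass at 0.05 ± 0.16 (95% interval -0.13 to 0.22, adjusted p = 0.634).

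Polymerase delta, which copies the lagging strand, differed little. Pold1, its catalytic subunit, was higher by 0.21 ± 0.04 (adjusted p = 0.00485) and 0.22 ± 0.06 by its second probe. Pold3 was higher by 0.20 ± 0.07 (adjusted p = 0.0127), with its further probes at 0.14 and 0.15, all of which passed, although on the Cy5 arrays alone its brightest probe did not (adjusted p = 0.229, in a range of 0.00554 to 0.229). Pold2 did not pass at 0.00 ± 0.15 (95% interval -0.16 to 0.17, adjusted p = 0.993), nor did Pold4 at -0.09 ± 0.02 (95% interval -0.16 to -0.01, adjusted p = 0.0641).

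Of polymerase epsilon, which copies the leading strand, the histone-fold subunit Pole4 stood apart. It was at 12.55, 12.38 and 12.68 against 12.02, 11.72 and 12.04. The channels did not overlap, the ratio was 0.61 ± 0.08 (adjusted p = 0.000471), and its other probes agreed in size at 0.68 ± 0.06 and 0.58 ± 0.02. Pole3, its histone-fold partner, did not pass at -0.13 ± 0.09 (95% interval -0.24 to -0.02, adjusted p = 0.0637), from 4 of 6 arrays because outlier spots were left out on the others. A second, dimmer Pole3 probe with values on all 6 arrays read 0.04 ± 0.03 (adjusted p = 0.378). Pole2 did not pass at 0.05 ± 0.11 (95% interval -0.08 to 0.17, adjusted p = 0.498). The catalytic gene Pole falls outside the naming rule and was higher by 0.15 ± 0.04 (adjusted p = 0.0148), with a further probe at 0.01.

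Among the clamp and its loader, 2 genes were higher, 1 was lower and 2 did not pass. That is 40% higher and 20% lower, against 22.2% and 23.2% of all genes. Pcna, the sliding clamp, was at 15.00, 15.01 and 15.07 against 14.99, 14.64 and 14.83. Its ratio of 0.21 ± 0.18 did not pass (95% interval 0.01 to 0.40, adjusted p = 0.0821), and the replicates were uneven at 0.01, 0.37 and 0.24. Pcna had 10 spots of a single probe on each array, whose SD within an array was 0.02 to 0.16. That is small beside the gap between dye orientations, in which the mean ratio was -0.15 with Scriptaid in Cy3 and 0.56 with Scriptaid in Cy5 (adjusted p of the dye effect = 0.0168). The Pcna probe was saturated in the labelled Scriptaid channel of 2 arrays. Fits that passed it were those of 6 arrays with a dye term, Agilent's processed signals, median centring, the Cy5 arrays alone and the fit without replicate 1 (adjusted p from 0.00321 to 0.482 over the alternatives).

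Rfc3, a small subunit of the clamp loader, was higher at 11.59, 11.18 and 11.48 against 11.10, 10.77 and 10.99. The ratio was 0.46 ± 0.04 (adjusted p = 0.000528), with no overlap. Rfc5 was close to it at 0.39 ± 0.05 (adjusted p = 0.000834). Rfc4, from the same pentamer, was lower by -0.12 ± 0.03 (adjusted p = 0.0324), a call that 7 of 18 alternatives removed, including the fits without replicate 1, 2 or 3, and the ratio was -0.02 with median centring (adjusted p = 0.716, in a range of 0.0104 to 0.716). Rfc2 did not pass at 0.04 ± 0.04 (95% interval -0.05 to 0.12, adjusted p = 0.437).

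Replication protein A, the trimer that coats single-stranded DNA, held the lowest member. Rpa1, its large DNA-binding subunit, was at 13.80, 13.46 and 13.58 against 14.57, 14.34 and 14.51. Every labelled Nullscript signal exceeded every labelled Scriptaid signal, with a ratio of -0.86 ± 0.08 (adjusted p = 0.000252), or 1.81-fold. Rpa2, the subunit phosphorylated in S phase and after damage, was higher by 0.17 ± 0.02 (adjusted p = 0.00828), and by 0.15 ± 0.06 at its second probe. The Rpa2 call was lost without replicate 3 and on the Cy5 arrays alone (adjusted p from 0.00261 to 0.121). Rpa3, the smallest subunit, did not pass at 0.04 ± 0.13 (95% interval -0.11 to 0.18, adjusted p = 0.655).

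Fen1, which removes the flaps of lagging strand fragments, did not pass at 0.14 ± 0.12 (95% interval 0.00 to 0.28, adjusted p = 0.0888). Slbp, which binds the stem-loop of replication-dependent histone mRNAs, was at 13.96, 13.79 and 13.82 against 14.25, 13.95 and 14.04. The channels overlap, and its ratio was -0.22 ± 0.07 (adjusted p = 0.00756). All 3 replicates were negative, at -0.29, -0.16 and -0.22, while the dye orientations differed, with a mean of -0.46 when Scriptaid was in Cy3 and 0.02 when it was in Cy5 (adjusted p of the dye effect = 0.0264), and the call was lost without replicate 3 (adjusted p = 0.0606, in a range of 0.00403 to 0.763).

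**Figure D3:**
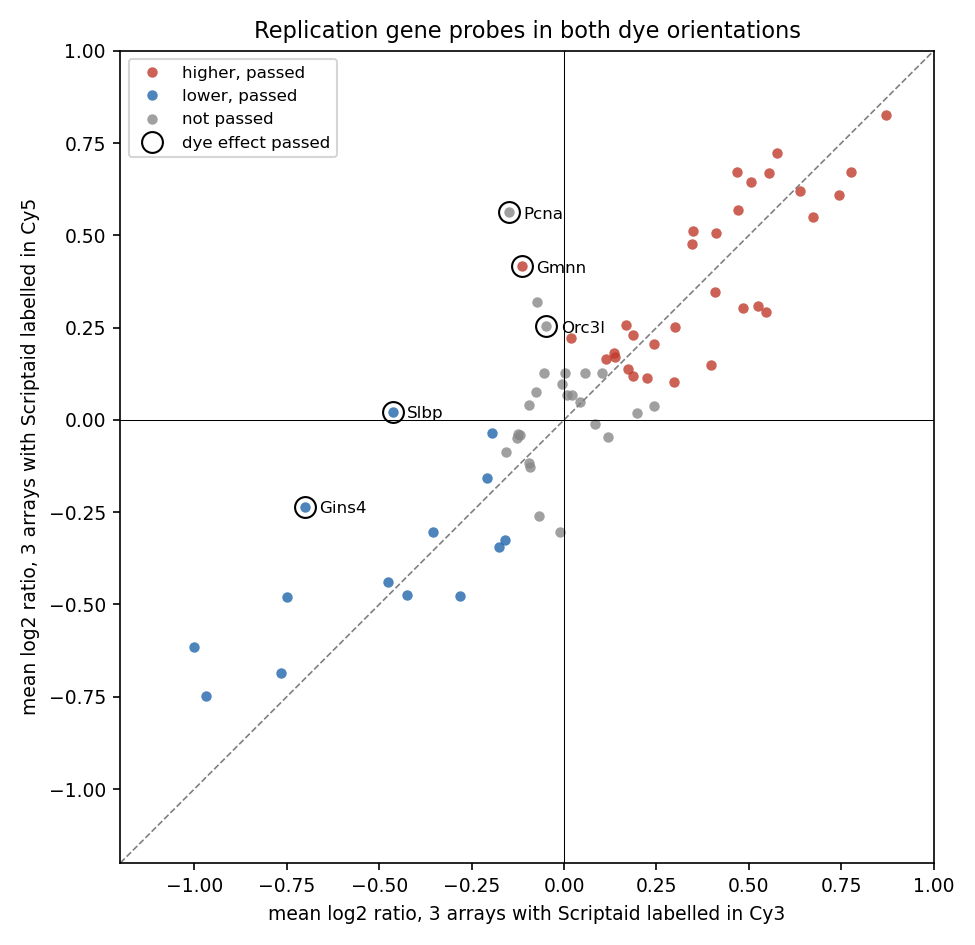
Mean log2 ratio over the 3 arrays with Scriptaid labelled in Cy5 (y axis) against that over the 3 arrays with Scriptaid labelled in Cy3 (x axis) for the 70 tested probes of replication genes; the dashed line marks equal values and circles mark the 5 probes whose dye effect passed. Gmnn and Slbp passed the test of the mean although the mean ratio of 1 orientation had the opposite sign, and Pcna lies at -0.15 and 0.56.

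Over the 31 genes that passed, 29 had the same sign in both dye orientations, Gmnn and Slbp being the exceptions. Both orientations enter the mean that was tested, and the share over all genes that passed was not computed. A dye effect was called for 5 of the 70 member probes, against 3.82% of all probes: those of Gmnn, Gins4, Pcna and Slbp and a second Orc3l probe. In each of the 5 the ratio was higher with Scriptaid in Cy5.

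Since subunits of a complex are made to be assembled together, the gaps within complexes were computed per replicate, for pairs chosen after their values were seen and therefore with no test. All gaps are between brightest probes. Dbf4 exceeded Cdc7 in log2 ratio by 1.23 ± 0.05, whereas the further probes were closer together, at 0.12 and 0.04 for Dbf4 and -0.16 and -0.08 for Cdc7. Within GINS, Gins1 exceeded Gins4 by 1.10 ± 0.13 and Gins3 by 0.87 ± 0.11. Rpa2 lay above Rpa1 by 1.03 ± 0.08, and Pola1 above Prim2 by 1.16 ± 0.34, where the second Prim2 probe read 0.07. In the origin recognition complex Orc5l lay above Orc4l by 0.99 ± 0.11 and Orc3l above Orc6l by 0.61 ± 0.08. In the clamp loader Rfc3 exceeded Rfc4 by 0.57 ± 0.07. These are differences between ratios of different probes on the same arrays, given as a description of the chosen pairs, and they say nothing of the proteins.

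**Figure D4:**
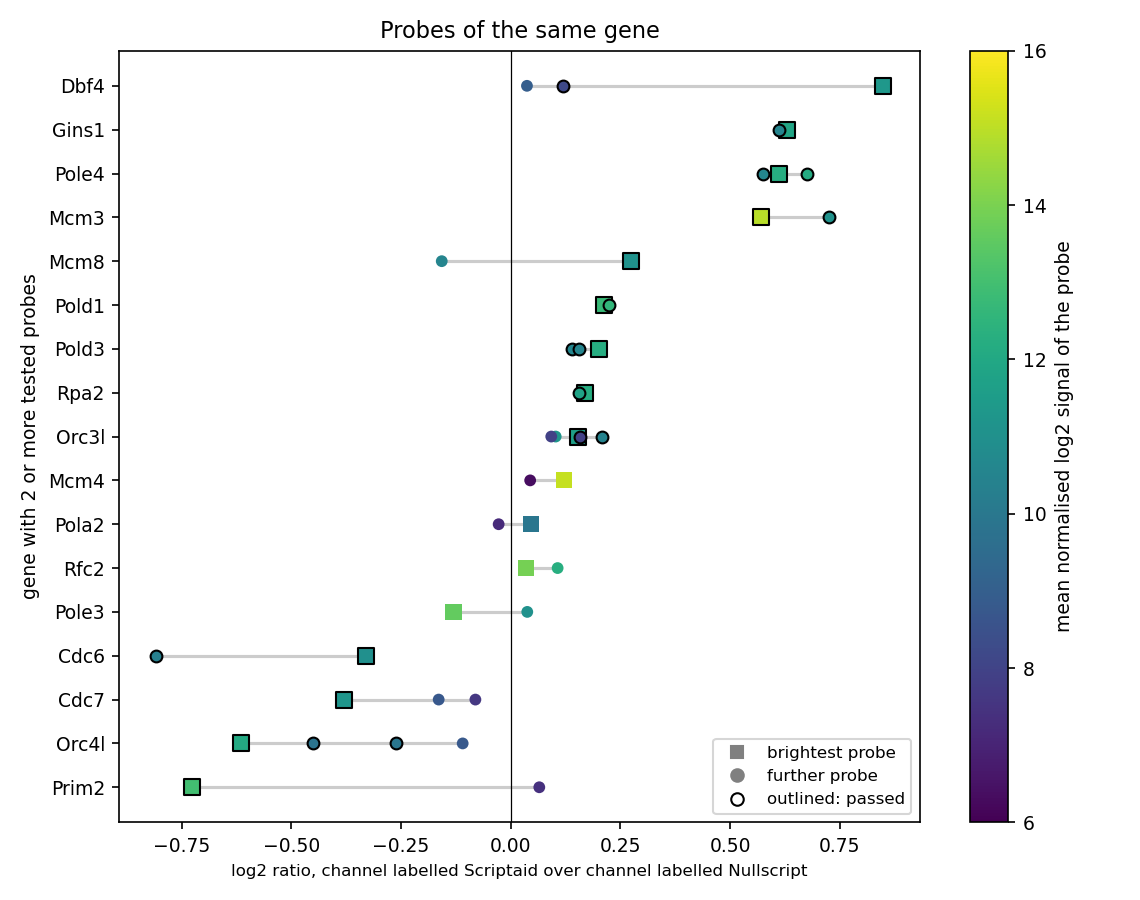
Log2 ratio (x axis) of every tested probe of the 17 replication genes with 2 or more tested probes (y axis); squares are the brightest probe, circles the others, an outline marks a passed test and colour the mean normalised log2 signal. Gins1, Pole4, Pold1 and Rpa2 have probes close together, while the single bright probes of Dbf4 at 0.85 and Prim2 at -0.73 lie far from the dimmer ones.

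Probes of the same gene mostly pointed the same way. Of the 17 genes with 2 or more tested probes, 13 had all of them on the same side of 0, a share that was not computed over all genes. Probes that passed in opposite directions were seen in 0 of the 17, against 2.66% of all such genes. A count of 0 among 17 is near that share. The exceptions in sign were Mcm8, Pola2, Pole3 and Prim2. The 26 further member probes gave 11 higher and 3 lower, against 26% and 18.8% of further probes over all genes. Close agreement was seen for Gins1, Pole4, Pold1, Pold3 and Rpa2, whereas Dbf4, Cdc7, Prim2 and Orc4l showed smaller ratios at their dimmer probes.

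**Figure D5:**
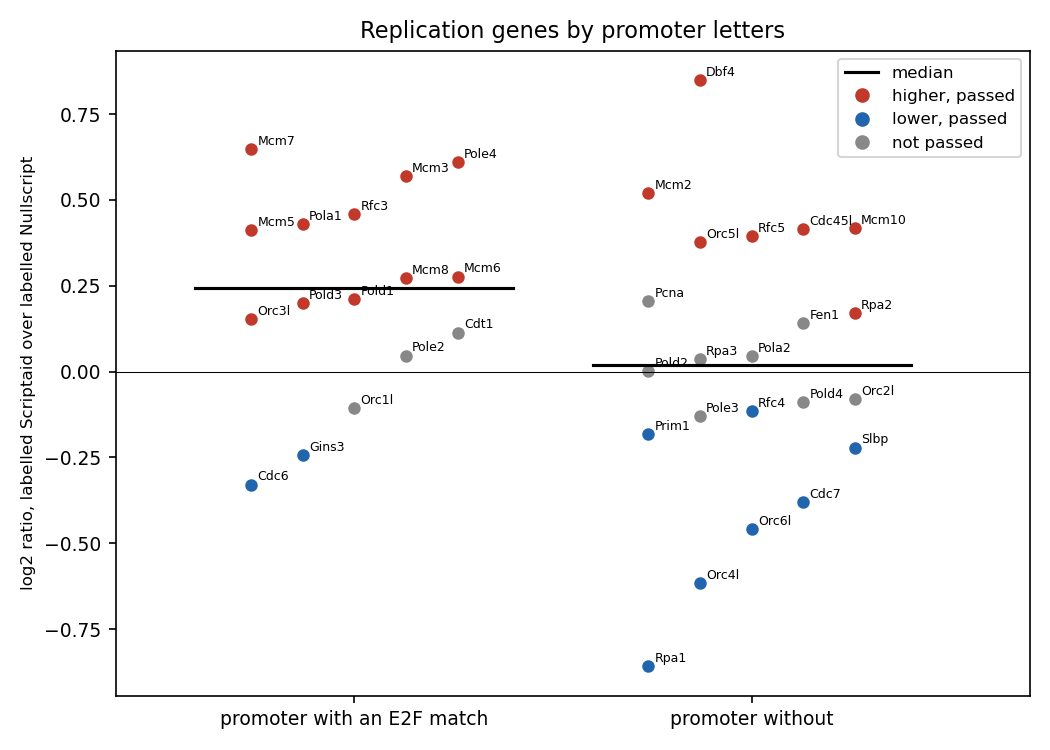
Log2 ratio of labelled Scriptaid over labelled Nullscript (y axis) of the brightest probe for the 16 replication genes with E2F letters in the promoter window and the 22 without (x axis); points are genes, bars the medians of 0.24 and 0.02. Of the genes with a match only Cdc6 and Gins3 passed as lower, and the genes without one span the full range from Rpa1 to Dbf4.

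The promoter letters shown earlier can be set beside these ratios as a description. Of the 16 genes with E2F letters 11 were higher and 2 were lower, Cdc6 and Gins3, with a median ratio of 0.24 and a range of -0.33 to 0.65. Of the 22 without them 7 were higher and 7 lower, with a median of 0.02 and a range of -0.86 to 0.85. Over all genes 22.2% were higher and 23.2% lower. Among genes at least as bright as the dimmest member these shares were 28.4% and 29.6%, near those of the members without E2F letters. The windows printed for Mcm7 and Cdc6 carry the same letters, GCGGGAAA on the gene's strand, and their ratios were 0.65 and -0.33. Dbf4 and Mcm2 had no match and were higher, and Rpa1 and Orc4l had none and were lower.

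Replication genes outside the naming rule were read from a list of 41 names, of which 40 were matched to a tested probe. Of these, 22 were higher, 6 lower and 12 did not pass, with a median of 0.25. That is 55% higher and 15% lower, against 22.2% and 23.2% of all genes. Rnaseh2b, an accessory subunit of the RNase that removes ribonucleotides from DNA, had the largest ratio at 1.00 ± 0.06, with a further probe at 1.37, whereas the catalytic Rnaseh2a was lower at -0.35 ± 0.04, with a further probe at -0.15. Dna2, a nuclease of flap processing, was at 0.83 ± 0.27, with further probes from 0.13 to 0.90. The fork protection genes Clspn and Timeless were at 0.72 ± 0.12 and 0.72 ± 0.01. Lower were the histone chaperones Asf1b at -0.77 ± 0.05 and Chaf1b at -0.45 ± 0.07, and the fork factor Donson at -0.56 ± 0.07.

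The regulators above these genes were mixed. Of 19 E2F and retinoblastoma pathway genes 6 were higher, 6 lower and 7 did not pass, with a median of 0.01. That is 31.6% in each direction, against 22.2% higher and 23.2% lower of all genes. It is near the 28.4% and 29.6% of genes at least as bright as the dimmest member. E2f3, an activating E2F, was higher in every replicate, by 0.81, 0.80 and 0.86, although its further probes read 0.24 to 0.42. Rb1, which restrains the activating E2F factors, was lower by -0.85, -0.86 and -0.84, a mean of -0.85 ± 0.01, although its further probe read -0.18. Also higher were Lin9 at 0.70 ± 0.12 with further probes at 0.12 to 0.22, Foxm1 at 0.57 ± 0.08 and Mybl2 at 0.48 ± 0.09, all of them partners in the transcription of late cell cycle genes. Lower were Lin54, the DNA-binding subunit that works with Lin9, at -0.75 ± 0.14 with a further probe at -0.03, Lin52 at -0.34 ± 0.05 and E2f2 at -0.22 ± 0.07.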

How the data were processed

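The authors deposited scanner output of Agilent Feature Extraction 9.1.3.1, per the file headers, which gives spot and local background intensities for Cy3 and Cy5, processed intensities and the log10 ratio of Cy5 over Cy3. A value table of log10 ratios was deposited as well. Its columns equal the scanner's log10 ratio, turned to labelled Scriptaid over labelled Nullscript, within 4.82e-06, with medians of -0.00959 to -0.00136, and it was not tested separately. Genome build and later steps of the authors are not given in the sources used here.

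In limma 3.58.1 under R 4.3.3, normexp with an offset of 50 was applied to the mean intensities, followed by loess within arrays. Control spots had weight 0, outlier spots were left out and saturated spots kept. Spots of a probe were averaged, signs were turned to labelled Scriptaid over labelled Nullscript, and the 2 arrays of a replicate were averaged. A probe was tested if, for either drug, 3 or more of 6 arrays had it well above background (39408 probes), with lmFit and eBayes on the log2 scale and Benjamini-Hochberg adjustment. Channel signals come from the normalised ratios and mean signals, after quantile normalisation of the mean log2 signal of the 2 channels between arrays. The ratios and their p values do not use that step. The labels give the 2 arrays of a number as the same biological replicate, and their deviations from the orientation means correlated at 0.61, 0.13 and 0.01 in replicates 1, 2 and 3. Arrays of different replicates with exchanged dyes correlated at -0.42 to 0.26, so the pairing in replicates 2 and 3 rests on the labels. Of 41174 probes 22951 were named by accession, 6659 by symbol and 3109 by an older symbol in the RefSeq table, and 8455 kept the file's name. Members were matched by the file's name. Promoters and figures used Python 3.11.15, pandas 2.3.3 and matplotlib 3.10.9. The fit was also run on simulated data with errors independent between arrays, which does not cover correlation within a replicate.

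Values are given in each replicate for the 8 genes per direction that passed with 1 sign in every replicate and had the largest ratios, for Mcm2 to Mcm7, Pcna, Cdt1, Cdc6, Gmnn, Cdc45l and Slbp, and up to 4 genes per direction are named from each other list. Mcm10, Mcm8, Prim1, Orc5l and Pole fall outside that rule where values in each replicate or a single value are given. The members and lists were chosen with earlier results of these data known. The number of arrays limits the precision. Alternatives changed the background correction, normalisation, filter, saturated and outlier spots, slide, dye orientation, replicates, replicate block and probe per gene.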

Additional observations from a re-analysis of the deposited data

Results flagged for a closer look

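In 5 member probes the arrays with Scriptaid labelled in Cy5 gave a higher log2 ratio than those with Scriptaid labelled in Cy3, by limma's test of the dye term over 6 arrays. The difference was 0.71 for Pcna (adjusted p = 0.0168), whose 3 ratios were -0.29, -0.05 and -0.11 in Cy3 and 0.30, 0.79 and 0.60 in Cy5. For Gmnn it was 0.53 (adjusted p = 0.00804), with -0.20, 0.02 and -0.16 in Cy3 and 0.36, 0.39 and 0.50 in Cy5. Slbp differed by 0.48 (adjusted p = 0.0264), with -0.58, -0.27 and -0.54 in Cy3 and 0.01, -0.04 and 0.09 in Cy5. For Gins4 the difference was 0.47 (adjusted p = 0.0146), all 6 ratios being negative. A second Orc3l probe differed by 0.30 (adjusted p = 0.0444).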

How the results depend on the processing

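Of the 31 genes that passed, 19 kept their call under all 18 alternatives and 12 lost it under at least 1, while 9 of the 13 that did not pass did so under at least 1. The sign of Gmnn turned to -0.12 on the arrays with Scriptaid in Cy3 alone and that of Slbp to 0.021 on the Cy5 arrays alone. Within slide 1, which is the fit without replicate 3, 19 member probes were higher and 9 lower, and 6 genes were lower. Every fit that leaves out a replicate holds fewer samples, and the cause of these counts was not tested. Leaving out each replicate in turn gave 19 to 30 probes higher, 9 to 13 lower, 14 to 20 genes higher and 6 to 10 lower. The median log2 ratio of member probes, 0.11, was 0.16 with median centring, 0.091 within slide 1, 0.050 on the Cy3 arrays alone and 0.091 to 0.12 without each replicate; the cause was not tested. With the replicate number as a block in a fit of 6 arrays with a dye term, 21 genes were higher and 13 lower, as in the fit without the block. Among all probes the lower count went from 8576 to 5330 without replicate 3. The remaining counts of member genes and probes lay within 1.5 times the main ones. Saturation limits the bright probes of Mcm3, Mcm4, Mcm6, Pcna and Gmnn.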
